A study of Homo sapiens with 2 samples.

Results

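Renal lineage transcription factors and the keratins of simple epithelium were followed in ACHN, an established human cell line from a renal cell carcinoma. The set was named as 9 genes, PAX8, PAX2, EMX2, LHX1 and HNF4A for the lineage factors and KRT7, KRT8, KRT18 and KRT19 for the keratins, and a gene entered by its symbol alone. Of these 9 genes, 7 were among the 12014 genes of the files. EMX2 and HNF4A were not listed in either file and were not analysed here. The cells were infected with lentivirus carrying either an shRNA against KIAA1429 (shKIAA1429), a scaffold protein of the complex that writes N6-methyladenosine (m6A) into mRNA, or a control shRNA (shNC), and both lines were kept under puromycin to select stable cells. There was 1 library per group, made strand-specifically from poly(A) RNA. The sample labels call the treated cells a KIAA1429 knockout, whereas the study's methods describe an shRNA knockdown. Since each group had 1 library, no spread between replicates could be estimated and no test was run, so the words higher and lower compare 2 libraries only.

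PAX8 and PAX2 are paired-box transcription factors that act early in the kidney lineage, and pathologists use both as markers of renal tubule origin. LHX1 is a LIM-homeobox factor of the early nephron, EMX2 a homeobox factor of the urogenital epithelium, and HNF4A a nuclear receptor of the proximal tubule. Keratins build the intermediate filaments of epithelial cells as obligate pairs of a type I and a type II chain. KRT8 (type II) with KRT18 (type I) is the basic pair of simple epithelium, while KRT7 (type II) and KRT19 (type I) mark many ductal and tubular epithelia and the tumors derived from them.

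Values were deposited as FPKM, fragments scaled to gene length and library size, so levels can be set side by side between genes, but their sequencing depth cannot be known. The 13 mitochondrial genes held 42.2% of the summed FPKM with shNC and 34.6% with shKIAA1429. A log2 change here is the difference in log2(FPKM + 1) between the shKIAA1429 and shNC libraries, and the added 1 makes differences of weakly expressed genes look smaller than they are. Changes were ranked over the 10702 genes that averaged 1 FPKM or more, with a median log2 change of 0.06, and levels were ranked over all 12007 listed symbols. When the FPKM of either library were scaled to add up to 1000000, that median became 0.24. KIAA1429, listed as VIRMA, was at 3.92 FPKM with shNC and 3.22 FPKM with shKIAA1429. Its log2 change of -0.22 was matched or exceeded in size by 5213 of the 10702 genes. In these values the lowering of the targeted gene itself therefore did not stand out from other genes. The study itself reported significantly lower KIAA1429 mRNA and protein in stable ACHN knockdown cells, by RT-qPCR and western blot.

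Because KIAA1429 belongs to the m6A writer complex, the transcripts of the members were searched for GGACT, a common form of the m6A consensus, on the transcript strand alone. The transcript with the longest coding sequence of each gene was taken from GENCODE 29. All 7 transcripts held at least 1 match, as did 90.6% of the 11853 transcripts of listed genes, so its presence did not set the members apart. The match nearest to the stop codon is printed below for each gene to show the sequence around it, with the match in capitals.

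PAX8: agcaacaggaGGACTcagcctggga
PAX2: ccgcctgcctGGACTgcgcggcgcc
LHX1: acccacccggGGACTcgcccagccc
KRT7: atgtggtggaGGACTtcaagaataa
KRT8: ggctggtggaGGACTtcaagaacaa
KRT18: aagatggcgaGGACTttaatcttgg
KRT19: ttcaccagccGGACTgaagaattga

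These windows of 25 bases were read 5′ to 3′ on the gene's strand, in GRCh38 coordinates. The PAX8 window lies in the 3′ UTR in exon 12 of 12, at chr2:113218481-113218505 on the minus strand, and its match begins 38 bases past the stop codon. The PAX2 window is also in the 3′ UTR, at chr10:100827873-100827897 on the plus strand, 264 bases past the stop codon. That of LHX1 lies in the coding sequence in exon 5 of 5, at chr17:36942956-36942980 on the plus strand. In the keratins, every nearest match was in the coding sequence, with KRT7 at chr12:52235342-52235366 on the plus strand in exon 2 of 9 and KRT8 at chr12:52901864-52901888 on the minus strand in exon 3 of 9. The KRT7 and KRT8 windows were identical at 21 of 25 positions, the highest of all pairs of windows, and both chains are type II keratins. These positions include the 5 bases of the motif, which every pair shares by construction. The KRT18 window crosses the junction of exons 6 and 7 of 7, and the KRT19 window that of exons 4 and 5 of 6.

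The lineage factors and the keratins differed in where matches stood. PAX8 held 2 matches in the 3′ UTR, PAX2 held 6 and LHX1 held 2, whereas the 3′ UTRs of the 4 keratins held 0. The keratin 3′ UTRs were short, from 59 bases in KRT18 to 161 bases in KRT7, against 1481 bases in LHX1, 2322 in PAX2 and 2536 in PAX8, and among all listed genes 55.9% of transcripts held a match there. Per kilobase of transcript, the density of matches did not separate the lineage factors from the keratins. PAX2 had 1.70, LHX1 1.46 and PAX8 0.72 matches per kilobase, and KRT18 had 1.28, KRT19 0.72, KRT8 0.59 and KRT7 0.57, with a median of 0.94 over all transcripts. A match to these letters is a description of the sequence and not a measured m6A site.

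**Figure D1:**
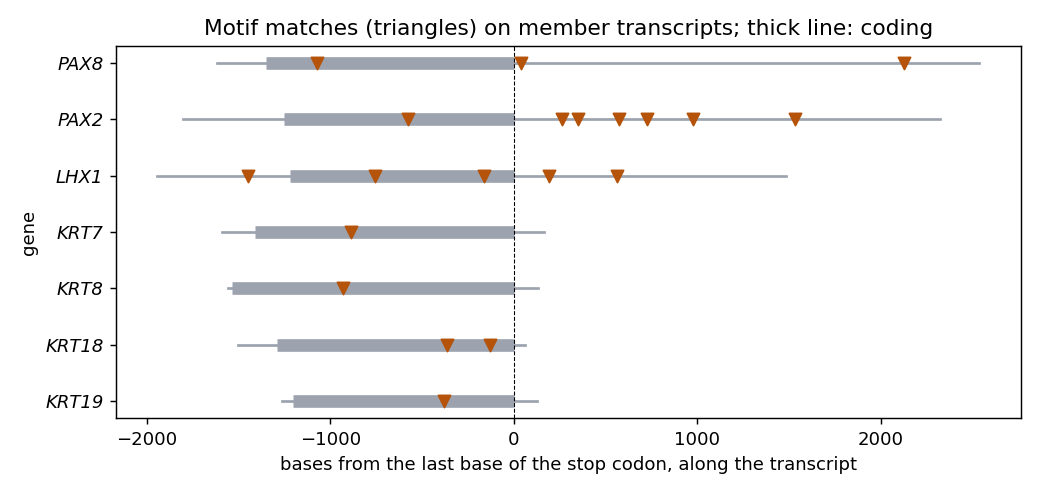
Positions of the 5-base motif on 1 transcript per member, in bases from the last base of the stop codon (dashed line). The thick line is the coding sequence, thin lines are the UTRs and triangles are matches; 3′ UTR matches occur in PAX8 (2), PAX2 (6) and LHX1 (2) and in 0 of the 4 keratins.

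PAX8 was the most abundant of the lineage factors and PAX2 was next, in both libraries. PAX8 (ENSG00000125618.16_2, chromosome 2 of GRCh37 from 113973574 to 114036527, minus strand) was at 64.7 FPKM with shNC and 104 FPKM with shKIAA1429. Its log2 change was 0.68, and its level in the shKIAA1429 library was 161% of that in the control. In bulk RNA, a different share of cells that express a gene and a different amount of its RNA per cell cannot be told apart. Of the 536 genes in its bin of mean FPKM, 1 of 20 such bins and itself included, 19 had a higher change, while the bin's median was -0.06. By level PAX8 stood at rank 390 of the listed genes with shNC and at rank 215 with shKIAA1429. PAX8-AS1, a noncoding gene on the opposite strand, overlaps PAX8 over 60585 bases in GENCODE 29. Only protein-coding genes are listed, so the absence of PAX8-AS1 says nothing about its level.

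PAX2 (ENSG00000075891.21_2, chromosome 10 of GRCh37 from 102495360 to 102589698, plus strand) was at 31.4 FPKM with shNC and 39.3 FPKM with shKIAA1429, a log2 change of 0.32. This difference was in the same direction as that of PAX8 but ordinary in size, since 33.8% of the genes tested changed by at least as much in either direction. The ratio of PAX8 to PAX2 in FPKM was 2.06 with shNC and 2.66 with shKIAA1429.

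LHX1 had the largest change of the 7 members and moved against the PAX genes. LHX1 (ENSG00000273706.4_2, chromosome 17 of GRCh37 from 35294084 to 35301912, plus strand) was at 11.01 FPKM with shNC. With shKIAA1429 it was at 4.44 FPKM, or 40.4% of the control, a log2 change of -1.14. This placed LHX1 at rank 60 from the lowest of 10702 genes, and 3 of the 535 genes in its bin had a lower change. In the shNC library LHX1 lay above 74.9% of the listed genes and in the shKIAA1429 library above 45.4% of them. The FPKM of PAX8 was 5.88 times that of LHX1 with shNC and 23.5 times that of LHX1 with shKIAA1429. An antisense gene, AC243773.1, overlaps LHX1 over 3408 bases in GENCODE 29. It is not protein-coding and so could not be among the listed genes, whatever its level.

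**Figure D2:**
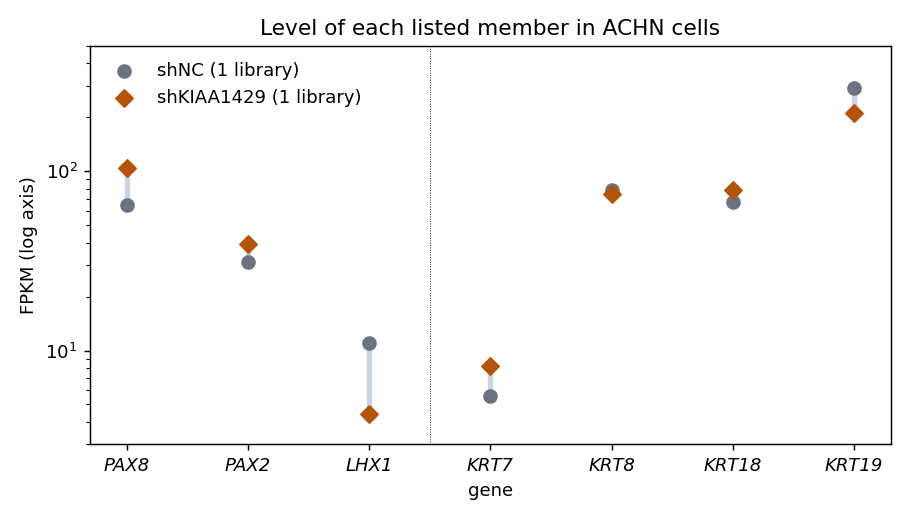
FPKM of each listed member (log axis) in the shNC library (grey circles) and the shKIAA1429 library (orange diamonds), 1 library each and therefore without error bars. LHX1 shows the widest gap, from 11.01 to 4.44 FPKM, and KRT8 the narrowest, from 78.3 to 74.6 FPKM.

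KRT19 was the most abundant member in both libraries, and the log2 changes of all 4 keratins lay within 0.5 in either direction. KRT19 (ENSG00000171345.13_2, chromosome 17 of GRCh37 from 39679869 to 39684560, minus strand) was at 292 FPKM with shNC and 212 FPKM with shKIAA1429, a log2 change of -0.46. Its difference of -79.9 FPKM, shKIAA1429 minus shNC, was the largest of the members on the linear scale, yet 46 of the 536 genes in its bin had a lower log2 change and its rank by level went only from 67 to 83 among the listed genes. Under all settings tried the log2 change of KRT19 lay between -0.52 and -0.28.

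KRT8 and KRT18, the basic pair of simple epithelium, were at nearly equal levels. KRT8 (ENSG00000170421.12_3, chromosome 12 of GRCh37 from 53290971 to 53343738, minus strand) was at 78.3 FPKM with shNC and 74.6 FPKM with shKIAA1429, a log2 change of -0.07 that became 0.11 when both libraries were scaled to add up to 1000000, so its direction depends on the scaling. KRT18 (ENSG00000111057.10_3, chromosome 12 of GRCh37 from 53342655 to 53346685, plus strand) was at 67.4 FPKM with shNC and 78.6 FPKM with shKIAA1429, a log2 change of 0.22. The ratio of KRT8 to KRT18, which no scaling of a library can alter, was 1.16 with shNC and 0.95 with shKIAA1429. The pair therefore exchanged places in the order of levels, by an amount whose replicate spread is unknown. In the files the loci of KRT8 and KRT18 overlap on opposite strands by 1084 bases, as they do in GENCODE 29. KRT8 and KRT18 also have many processed copies in the genome, 50 and 67 pseudogenes by name in GENCODE 29. Of the 100-base stretches of the KRT8 transcript, 7.56% occurred exactly in transcripts of 4 KRT8 pseudogenes, and none of those of the KRT18 transcript occurred in a transcript of another gene. How reads that fit a gene and its copies were assigned is not given in the sources used here, so the level of KRT8 carries that uncertainty. Copies that differ by some bases were not compared.

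KRT7 was the least abundant of the keratins in the set. KRT7 (ENSG00000135480.15_3, chromosome 12 of GRCh37 from 52626304 to 52645970, plus strand) was at 5.59 FPKM with shNC and 8.21 FPKM with shKIAA1429, a log2 change of 0.48. Changes as large or larger, in either direction, were seen in 17.0% of the genes tested. KRT19 was 52.2 times as abundant as KRT7 with shNC and 25.8 times with shKIAA1429. KRT86, another keratin gene on the same strand that is not among the listed genes, overlaps KRT7 over 2887 bases in GENCODE 29.

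Of the 7 listed members, all passed the filter on mean FPKM. With shKIAA1429, 4 of them had a higher level and 3, counting KRT8, a lower level. Across all genes tested 57.3% were higher, so the split of the members was near that of the background. None of the 7 passed a log2 change of 1.5, and only 0.635% of all genes tested did in either direction. With so small a share, 0 of 7 members does not set them apart. The study's methods give this limit together with a P value from DESeq2, which could not be computed here. With a limit of 1, LHX1 alone passed, on the lower side, as 0.897% of all genes tested did on that side. In either direction, 1.68% of the genes tested changed by at least as much as LHX1. The log2 changes of 5 of the 7 members lay within 0.5 of no change, as did those of 84.0% of all genes tested. By level the members stood in the order KRT19, KRT8, KRT18, PAX8, PAX2, LHX1 and KRT7 with shNC, and KRT19, PAX8, KRT18, KRT8, PAX2, KRT7 and LHX1 with shKIAA1429. With 1 library per group, neighbours in this order cannot be told apart by their spread.

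**Figure D3:**
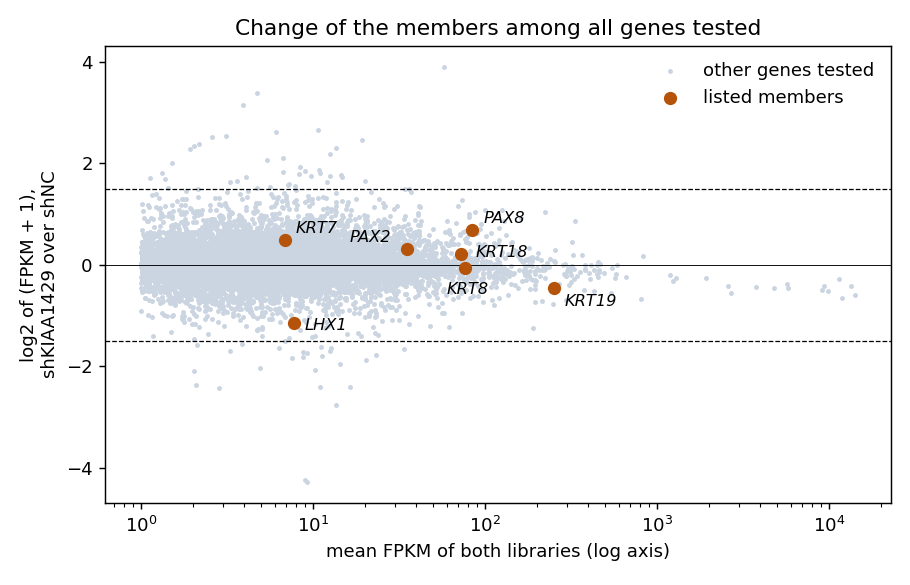
Log2 change of (FPKM + 1), shKIAA1429 over shNC, against the mean FPKM of both libraries (log axis) for 10702 genes (grey), with the 7 listed members in orange and dashed lines at the limits of 1.5. PAX8 at 0.68 and LHX1 at -1.14 lie toward the edges of the genes of like level, and 0 members lie past the dashed lines.

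Besides the 4 keratins of the set, the files listed 3 of the other keratins, KRT80, KRT10 and KRT222, so that 7 of the 55 protein-coding keratin genes of GENCODE 29 were listed. KRT80, a type II keratin, was as abundant as KRT8, with 83.4 FPKM with shNC and 75.0 FPKM with shKIAA1429. KRT10, the type I keratin known from differentiated epidermis, was at 15.8 and 17.5 FPKM, and KRT222 at 4.96 and 4.24 FPKM. Summed by type, the listed type I keratins held 380 FPKM with shNC and 312 FPKM with shKIAA1429, and the type II keratins 167 and 158 FPKM. The excess of type I over type II was 2.27-fold with shNC and 1.98-fold with shKIAA1429. KRT19 made up 53.3% of all listed keratin FPKM with shNC and 45.1% with shKIAA1429. The difference of KRT19 alone was larger than that between the type I sums, since KRT18 and KRT10 were higher with shKIAA1429.

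**Figure D4:**
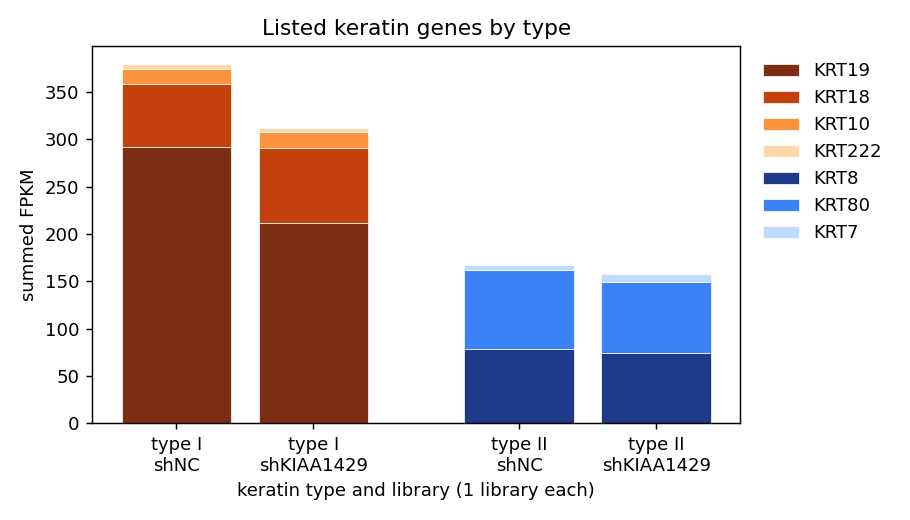
Summed FPKM of the 7 listed keratin genes, stacked by gene, for type I and type II chains in each library (1 library per bar, axis from 0). The type I sum is 380 FPKM with shNC and 312 FPKM with shKIAA1429, with KRT19 the largest segment of both, while the type II sums are 167 and 158 FPKM.

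Vimentin (VIM), the intermediate filament protein of mesenchymal cells that renal carcinoma cells commonly co-express with keratins, was at 368 FPKM with shNC and 228 FPKM with shKIAA1429, a log2 change of -0.69. The 4 keratins of the set together were at 443 and 373 FPKM, so that their sum was 1.20 times the level of vimentin with shNC and 1.64 times with shKIAA1429. Of the 10 other intermediate filament genes listed, vimentin among them, 6 were higher and 4 lower, with a median log2 change of 0.03, which was between -0.031 and 0.20 under the settings tried. The lamins LMNA and LMNB2, which line the inside of the nuclear envelope, differed little, at 23.94 and 24.96 FPKM for LMNA and 31.7 and 32.1 FPKM for LMNB2.

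The desmosome and hemidesmosome proteins that anchor keratin filaments were followed with a list of 17 symbols, in which BPAG1 is an older name of DST. Of the 11 tested, 6 were higher and 5 were lower, with a median log2 change of 0.0014 against 0.06 for all genes, a median that was between -0.070 and 0.18 under the settings tried, and 0 passed 1.5. The desmosomal cadherin DSG2 was at 17.6 FPKM with shNC and 31.9 FPKM with shKIAA1429. JUP (plakoglobin), which links desmosomal cadherins to desmoplakin, was at 21.4 and 19.3 FPKM. PLEC, the cytolinker plectin, was at 15.2 and 15.9 FPKM. The genes of this list therefore did not share a direction.

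Of 30 further transcription factors of kidney development and the nephron, 17 were listed and 14 were tested, of which 6 were higher and 8 lower. Their median log2 change of -0.12 was below that of all genes, and 0 passed 1.5. After rescaling to a sum of 1000000 it became 0.037, against 0.24 for all genes. POU3F3, a factor of the loop of Henle and distal nephron, was at 16.02 FPKM with shNC and 12.47 FPKM with shKIAA1429. HOXD11, which patterns the metanephric kidney, had the lowest change of this list, from 6.63 to 3.27 FPKM, a log2 change of -0.84. WT1, EYA1 and GATA3 were among the 13 not listed.

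The labels name the line ACHN, and its cells were checked against markers of the renal tubule. Of the 9 members, PAX8, PAX2, KRT8, KRT18 and KRT19 were each above 30 FPKM in both libraries, KRT7 and LHX1 were lower, at the levels given above, and EMX2 and HNF4A were not listed. Of 24 proximal tubule markers only 9 were listed, and the endocytic receptors LRP2 and CUBN, the phosphate transporter SLC34A1 and the glucose transporter SLC5A2 were not. The most abundant of the 9 were PDZK1, a scaffold of brush border transporters, at 16.9 FPKM with shNC and 10.1 FPKM with shKIAA1429, SLC17A3 at 9.67 and 16.1 FPKM, and the peptidase DPP4 at 8.21 and 10.9 FPKM. The median log2 change of the 8 proximal tubule markers tested was -0.22, with 3 higher and 5 lower. Of 22 markers of the loop, distal tubule and collecting duct, 3 were listed. CLDN16, a tight junction protein of the thick ascending limb, was at 111 FPKM with shNC and 212 FPKM with shKIAA1429, WNK1, a kinase found in many tissues, at 24.8 and 39.6 FPKM, and SCNN1A below 1 FPKM in both. UMOD, SLC12A1, SLC12A3 and AQP2 were not listed.

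Of 20 genes of epithelial adhesion and polarity, 12 were listed and tested. The count was 4 higher and 8 lower, with a median log2 change of -0.25 against 0.06 for all genes. CLDN1, a tight junction protein, was at 236 FPKM with shNC and 428 FPKM with shKIAA1429. EPCAM, an adhesion protein of many epithelia, was at 32.8 and 23.1 FPKM, and CDH2 (N-cadherin), which the proximal tubule also expresses, at 29.4 and 19.3 FPKM. The renal carcinoma list had 8 of 12 genes tested, 4 higher and 4 lower, with a median of 0.020, which was between -0.055 and 0.20 under the settings tried. In it NNMT, nicotinamide N-methyltransferase, was at 57.5 FPKM with shNC and 91.0 FPKM with shKIAA1429, and TGFA, a ligand of the EGF receptor, at 18.8 and 20.2 FPKM. CA9, a marker of clear cell carcinoma, was not listed. No gene of either list passed 1.5 in either direction.

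Endothelial, fibroblast and pericyte, and immune markers were mostly not listed, as was also true of the tubule markers above. Most podocyte markers were listed. Of 8 podocyte markers 6 were listed, with a median log2 change of 0.082 over the 4 tested, which was -0.25 when an average of 5 FPKM was required and 0.31 without a filter. The leading genes were ACTN4 at 85.7 FPKM with shNC and 71.9 FPKM with shKIAA1429, SYNPO at 17.6 and 10.9 FPKM and CD2AP at 13.2 and 18.0 FPKM, and NPHS1 (nephrin), which defines the cell type, was not listed. Of 12 endothelial markers 2 were listed, EGFL7 at 9.52 and 7.08 FPKM and ESAM at 1.26 and 0.84 FPKM, and PECAM1, CDH5 and VWF were not. Of 12 fibroblast and pericyte markers 5 were listed, with a summed level of 118 FPKM with shNC and 136 FPKM with shKIAA1429. Their main parts were THY1 at 60.4 and 34.8 FPKM, ACTA2 at 47.1 and 76.2 FPKM and RGS5 at 9.30 and 22.4 FPKM, while COL3A1, DCN and PDGFRA were not listed. Over the 4 tested, their median log2 change was 0.51. Of 16 immune markers 2 were listed, CD68 at 3.87 and 2.06 FPKM and LYZ, lysozyme, at 3.93 and 0.154 FPKM, a log2 change of -2.09 that passed 1.5, while PTPRC was not listed.

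**Figure D5:**
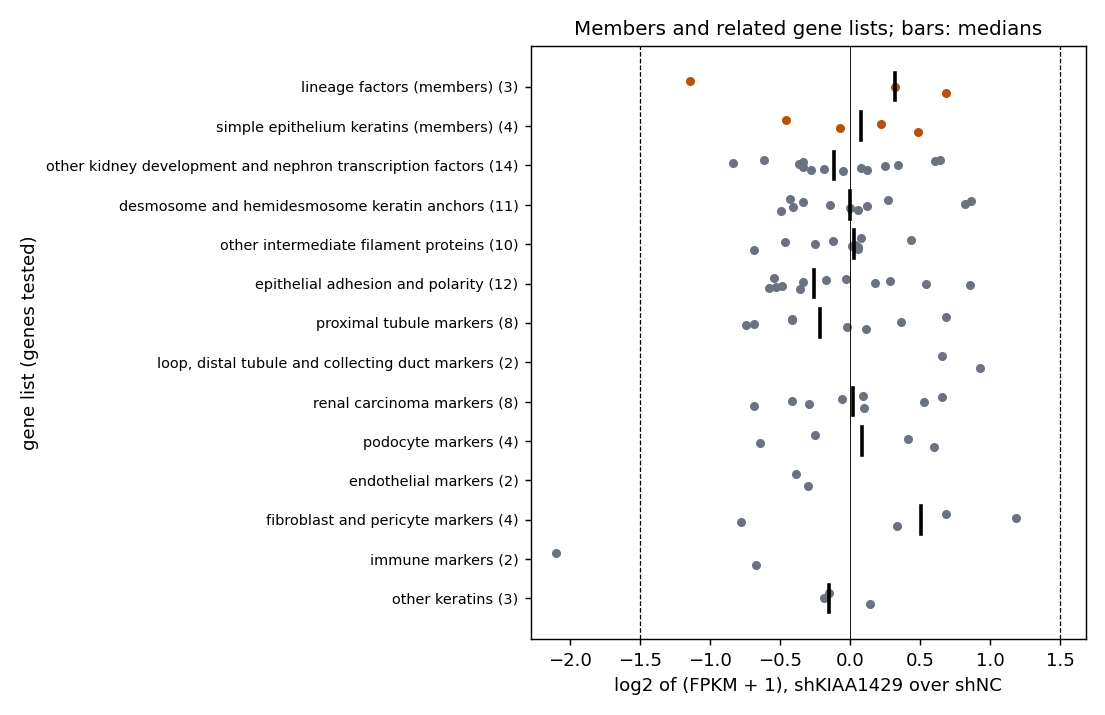
Log2 change of (FPKM + 1), shKIAA1429 over shNC, for every tested gene of the members (orange) and of the related lists (grey), with black bars at the medians of lists with at least 3 genes and dashed lines at 1.5. The 3 lineage factors span -1.14 to 0.68 and the 4 keratins -0.46 to 0.48, and LYZ of the immune list, at -2.09, is the point past a dashed line.

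By position, KRT7, KRT8 and KRT18 lie together on chromosome 12, with KRT80 at 40.5 kb from KRT7 and no other listed gene in the 645 kb between KRT7 and KRT8. In the deposited values, the nearest listed genes on both sides shared the direction of PAX8, PAX2 and LHX1. Those of KRT7, KRT8 and KRT18 had the opposite direction. These keratins are partly one another's neighbours, so their comparisons are not separate. KRT8, at -0.07, became 0.11 after rescaling to a sum of 1000000, so this pattern depends on the scaling. HIF1AN, beside PAX2, was at 0.027, below the median of 0.06 of all genes. Across all genes tested 57.3% were higher, and how often neighbours share a direction over all genes was not computed. On the far side of KRT18 the nearest listed gene, 53.3 kb away, was EIF4B, a translation initiation factor, at 269 FPKM with shNC and 113 FPKM with shKIAA1429, a log2 change of -1.24, whereas KRT18 itself was at 0.22. The nearest listed genes on both sides of LHX1 were lower with shKIAA1429, as LHX1 was. AATF, 4.26 kb from LHX1, was at 34.3 and 23.9 FPKM, a log2 change of -0.51, and MRM1, 329 kb away, was at 6.78 and 3.38 FPKM, a log2 change of -0.83. PAX8 stood between CKAP2L, with a log2 change of 0.50, and CBWD2, with 0.13, both at under 5 FPKM. PAX2 stood between HIF1AN, with 0.027, and SLF2, with 0.58. KRT19 stood between KRTAP2-3, which was under the filter at 0.39 and 0.79 FPKM, and EIF1, with -0.087.

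The genes nearest in level to PAX8 and KRT19 were found by the Euclidean distance in log2(FPKM + 1) over the 2 libraries, which fixes both the level and the change and says nothing more with so few libraries. For PAX8 they were DDIT4 (distance 0.14), PRNP (0.16) and HNRNPAB (0.19). For KRT19 they were RARRES2 (0.021), RPL3 (0.15) and ACTG1 (0.22). DDIT4, an inhibitor of mTOR signaling, was at 70.6 FPKM with shNC and 110 FPKM with shKIAA1429, and RARRES2, the secreted protein chemerin, at 295 and 210 FPKM.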

How the data were processed

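Gene levels were measured by RNA-seq of poly(A) RNA in 2 ACHN libraries. FPKM values per gene were deposited by the authors, 1 column per library. Per the submitters' processing notes, cutadapt 1.9, HISAT2 2.0.4, StringTie 1.3.4d, DESeq2 and edgeR were used, with no roles given. The build is not given in the sources used here; positions in the files fit GENCODE genes lifted to GRCh37. The files list protein-coding genes only, each above 0.5 FPKM in at least 1 library. Read counts cannot be recovered from these values, so depth is unknown and intervals are not given.

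Groups were taken from the sample labels. The log2 of (FPKM + 1), shKIAA1429 over shNC, was computed for genes averaging 1 FPKM or more. For the 7 symbols with several rows, the most abundant row was kept. Changes were ranked among all genes and within 20 bins of mean FPKM. The limit of 1.5 follows the study's methods, which applied it with a P value in DESeq2 and not to FPKM of single libraries as here. The members and the hand-written lists were chosen with earlier results of these data known. The genes named were the members, KIAA1429, all listed keratins, the 3 most abundant genes of each list and any past 1.5, the nearest listed gene on each side of each member, and the 3 genes nearest in level to PAX8 and KRT19. List members said not to be listed, and the lowest of the kidney factors, were named after their values were seen. Some genes this rule names are not reported here. No median was taken over fewer than 3 genes.

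Transcripts, overlaps and motif positions came from GENCODE 29 (GRCh38). The steps were also run on simulated data. The settings and outcome of that run are not given here, so it is no evidence on changes of the size reported. Alternatives were a pseudocount of 0.1, centring, rescaling to a sum of 1000000 with or without mitochondrial genes, summing rows of a symbol, no filter, a mean FPKM of at least 5 and a limit of 1. Python 3.11.15, NumPy 2.4.6, pandas 2.3.3 and matplotlib 3.10.9 were used.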

Additional observations from a re-analysis of the deposited data

How the results depend on the processing

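Under the 4 alternatives that can move a member's log2 change, the pseudocount, centring and both rescalings, 6 of the 7 members kept their direction, and KRT8, at -0.07, became 0.11 after rescaling to a sum of 1000000. The log2 change ranged from 0.62 to 0.87 for PAX8, 0.26 to 0.51 for PAX2, -1.29 to -1.08 for LHX1, 0.42 to 0.71 for KRT7, 0.16 to 0.40 for KRT18, and -0.28 to -0.095 for KIAA1429, which a minimum of 5 left out. No member passed 1.5 under any of these, and a limit of 1 gave 1 lower member, LHX1. With 1 library per group and unknown depth, no error can be set beside these values. No paired analysis was possible because each group is a single library.

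The limit and the summed rows do not move a list's median. Under the other 6 alternatives, 39 of 66 medians stayed in sign and within 0.1 of the values given, and 8 turned sign. Some of the 39 could not have moved, so the count overstates how stable the medians were. Neither filter setting changes the genes of the lineage factors or of the keratins of the set. Dropping the filter also adds no gene to the other keratins, other intermediate filaments, adhesion and polarity, or renal carcinoma markers. Rescaling to a sum of 1000000 multiplies the libraries by unlike factors, and centring subtracts the median of all genes. Both therefore shift the medians by construction. The filter settings change which genes enter a median, and the pseudocount sets how far differences of weakly expressed genes are reduced. Without mitochondrial genes the FPKM summed to 163587 with shNC and 163171 with shKIAA1429. Rescaling them to 1000000 therefore raised both libraries by nearly equal factors, so the added 1 weighed less, as with the smaller pseudocount. Rescaling to a sum of 1000000, which raised the median of all genes from 0.06 to 0.24, gave medians of 0.51 for the lineage factors, 0.26 for the 4 keratins, 0.029 for the other keratins (from -0.15), 0.037 for other kidney factors, 0.18 for keratin anchors, 0.20 for other intermediate filaments, -0.11 for adhesion and polarity, -0.076 for proximal tubule, 0.20 for renal carcinoma, 0.27 for podocyte and 0.76 for fibroblast markers. The fibroblast median was 0.62 with a pseudocount of 0.1 and 0.61 when rescaled without mitochondrial genes. Centring gave -0.057 for keratin anchors, -0.031 for other intermediate filaments and -0.038 for renal carcinoma markers. Without a filter the medians were -0.35 for proximal tubule, 0.31 for podocyte and 0.33 for fibroblast markers. When an average of 5 FPKM was required, which leaves fewer genes, they were -0.26 for other kidney factors, -0.070 for keratin anchors, -0.36 for adhesion and polarity, -0.025 for proximal tubule, -0.055 for renal carcinoma, -0.25 for podocyte, 0.68 for fibroblast markers and -0.0050 for other keratins.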
